A study of Mus musculus with 73 samples.

Results

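The secreted Wnt antagonists examined in the mouse jejunum were the 7 genes *Sfrp1*, *Sfrp2*, *Sfrp4*, *Frzb*, *Dkk2*, *Dkk3* and *Wif1*, taken as a named list of 20882 genes listed in the table of captured tissue, 20504 of which were kept, and, without *Wif1*, which has no row there, of 21058 genes in the table of single cells. Their levels were read across 4 zones of the crypt-villus axis captured by laser, and in 325 mesenchymal cells of the 2347 wells that passed limits of 400 to 8000 unique molecular identifiers (UMIs, counted RNA molecules) and at least 250 genes. A cell was called mesenchymal where at least 2 of *Pdgfra*, *Dcn*, *Lum*, *Col1a1*, *Col1a2* and *Col3a1* were detected. These cells were split by which of *C4b*, a complement gene, and *Igfbp6*, an insulin-like growth factor binding protein, had more UMIs, into 51 C4b-high cells, 100 Igfbp6-high cells and 174 cells with neither gene ahead.

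Wnt ligands are secreted lipid-modified proteins that bind Frizzled receptors with the co-receptors Lrp5 and Lrp6 and stabilise beta-catenin, and in the intestine this signal is needed to keep crypt stem cells. Secreted antagonists act outside the cell and limit the signal at its start. The secreted Frizzled-related proteins, encoded by *Sfrp1*, *Sfrp2*, *Sfrp4* and *Frzb*, carry a cysteine-rich domain like that of the Frizzled receptors and bind Wnt ligands, Wif1 binds Wnt ligands through its own domain, and Dkk2, like the founding Dickkopf protein Dkk1, binds the Lrp5 and Lrp6 co-receptors. Dkk3 is a divergent Dickkopf family member whose place in the pathway is less settled.

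The study asked which stromal cells signal to the epithelium along the villus, and its series holds 73 samples. Sections and cells came from C57BL/6 male mice of 3 months on regular chow. The laser-captured sections were 6 of the crypt from mice 1 to 3, and 8 of the villus bottom, 7 of the villus center and 8 of the villus tip from mice 1 to 5. The single cells were sorted into 384-well plates under gates that the labels name by surface markers, mainly Pdgfra, and mice with such plates are called A to H here. A further 8 libraries of isolated epithelium came from male mice of 4 months, labelled Lgr5(GFP-ires-DTR/+), whose allele puts the diphtheria toxin receptor in every cell that transcribes *Lgr5*, 48 h after diphtheria toxin or mock treatment, 4 mice each.

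*Sfrp1* was the only member among the study's probe sets for single-molecule FISH, so its probes show which part of the transcript was looked at. By this method the paper reports raised *Sfrp1* in crypt bottom telocytes, a stromal cell type. That is a measure in single cells, unlike the captured tissue given further on. All 48 probes matched the 4372-base transcript Sfrp1-201, which has 3 exons and lies on the plus strand of chromosome 8, from base 23411502 to 23449632 (GRCm38, GENCODE). Of them, 7 lay in the coding part and 41 in the 3′ UTR. The following probes, 1 from each exon, are complementary to the transcript and are printed 5′ to 3′.
Probe 1, exon 1, chr8:23412108-23412127: aacagaggaagacctgggtg
Probe 4, exon 2, chr8:23417352-23417371: ctgacttcaactcgttgtcg
Probe 6, exon 3, chr8:23446406-23446425: gaactccttgtttttcttgt

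*Dkk2* and *Sfrp2* are shown by their promoters because most of their few UMIs in the 2 split classes fell on opposite sides, as given further on. The difference was not called for *Dkk2* (adjusted p = 0.701, edgeR). It was not tested for *Sfrp2*, whose UMIs all came from mouse G. RefSeq (GRCm38.p6) held a promoter for 4 of the 7 members, and the following 250 bases end just before each gene's start, on the plus strand of chromosome 3. Capitals mark a match on either strand to CTTTGA or CTTTGT, letters that TCF/LEF factors bind, or to TATAAA, the TATA box.
Dkk2, chr3:132085042-132085291: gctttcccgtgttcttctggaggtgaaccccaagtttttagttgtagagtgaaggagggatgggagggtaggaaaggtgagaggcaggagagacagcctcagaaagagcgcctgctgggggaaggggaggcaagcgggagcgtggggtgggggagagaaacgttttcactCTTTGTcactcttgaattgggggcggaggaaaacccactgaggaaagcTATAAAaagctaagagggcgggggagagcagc
Sfrp2, chr3:83766071-83766320: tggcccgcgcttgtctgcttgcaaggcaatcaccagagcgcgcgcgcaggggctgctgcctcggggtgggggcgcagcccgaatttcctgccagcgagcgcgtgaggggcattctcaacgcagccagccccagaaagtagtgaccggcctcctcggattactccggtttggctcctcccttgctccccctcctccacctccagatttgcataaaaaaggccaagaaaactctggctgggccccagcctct
The *Dkk2* window held CTTTGT 80 bases and TATAAA 32 bases before the start, and the *Sfrp2* window held none of the motifs. Among 32851 promoter windows of this length, 13.8% held CTTTGA, 16.5% held CTTTGT and 12.4% held TATAAA, so such matches are common. The GC content was 55.6% for *Dkk2* and 63.6% for *Sfrp2*, against a median of 52.4% over all windows.

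Cells of mouse G weighed heavily in the single-cell values. It gave 36 of the 51 C4b-high and 81 of the 100 Igfbp6-high cells, and 1 of its plates alone held 168 of the 325 mesenchymal cells (51.7%). Plates labelled as doublets gave 79 of the mesenchymal cells, no doublet caller was run, and plates shared well barcodes by design. Of the lists of other cell types, the glial and neuronal one had no UMI in mesenchymal cells, the immune one had only *Cd74* (14 UMIs, with *Ptprc* and *Cd3e* at 0) and the endothelial one only *Pecam1* (3 UMIs, with *Cdh5* and *Kdr* at 0). The smooth muscle and myofibroblast list summed to 14.5 UMIs per 100000 in C4b-high cells, 4.61 in Igfbp6-high cells and 122 in cells with neither gene ahead, with all 6 of its genes detected there. The pericyte list summed to 18.4, 1.98 and 48.7 UMIs per 100000 in these classes, and the mesothelial list to 14.5 in Igfbp6-high cells and 0 in the others. The epithelial list summed to 40.7, 9.23 and 75.2 UMIs per 100000 in C4b-high cells, Igfbp6-high cells and cells with neither gene ahead, and to 1672 in the other wells. The Paneth list summed to 10.5, 5.27 and 17.6 UMIs per 100000 in the same order and to 18.2 in the other wells. The part of these markers in the results was not tested.

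Nearly all UMIs of the antagonists lay in mesenchymal cells. *Sfrp1* had 345 UMIs in the mesenchymal cells of the 4 mice with at least 5 of them and 20 in the 2022 other cells, and 94.5% of its UMIs lay in mesenchymal cells. It was detected in 5 of the other cells (0.247%), including 1 of 1208 wells with *Epcam* and 0 of 40 with *Ptprc*. The sums of cells per mouse differed by 6.50 on the log2 scale (95% interval 5.33 to 7.67, adjusted p = 1.06e-24, edgeR quasi-likelihood test with Benjamini-Hochberg adjustment over 12932 genes).
*Dkk3* had 80 UMIs in mesenchymal and 3 in other cells, a difference of 6.92 on the log2 scale (95% interval 5.59 to 8.25, adjusted p = 2.27e-22, edgeR), and the ratio of its pooled levels had a counting interval of 91.3 to 1370. *Dkk2* and *Sfrp4* each had 25 UMIs in mesenchymal and 0 in other cells, which is at least 86.5-fold higher when the other cells are set to the 3 UMIs that a count of 0 allows (adjusted p = 1.66e-12 for *Dkk2* and 9.78e-10 for *Sfrp4*, edgeR). The remaining members were too rare for the test: *Sfrp2* had 7 UMIs against 0, at least 24.2-fold higher, and *Frzb* had 1 UMI against 0.
In this comparison 29.0% of all genes tested were called, and 12% were called higher in mesenchymal cells. *Dkk2*, *Dkk3* and *Sfrp4* passed the minimum of 10 UMIs only through their mesenchymal cells, so their direction was set by the filter, whereas *Sfrp1* had 20 UMIs in the other cells alone. The median difference of all genes was -0.39 on the log2 scale with TMM scaling and 0.27 with scaling by total UMIs.

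Within the mesenchyme, *Sfrp1* was highest in C4b-high cells. Over all their cells the C4b-high class held 147 UMIs of *Sfrp1*, or 193 per 100000 (exact 95% Poisson interval 163 to 227), the Igfbp6-high class 38 UMIs, or 25.05 per 100000 (17.7 to 34.4), and the class with neither gene ahead 160 UMIs, or 94.0 per 100000 (80.0 to 110). Such intervals cover counting error only. By mouse, the C4b-high level was 222 per 100000 in mouse A, 285 in mouse E with 4 cells, and 178 in mouse G, and the Igfbp6-high level was 49.6 in mouse A and 22.6 in mouse G. The C4b-high level was 4.47-fold higher within mouse A and 7.91-fold higher within mouse G. The few Igfbp6-high cells of mice B (2 cells), E (1) and H (1) held 0 *Sfrp1* UMIs.
The sums of mice A and G, the only ones with at least 5 cells of both classes, differed by 2.78 on the log2 scale (SE 0.47, 95% interval 1.85 to 3.71), a 6.87-fold higher level in C4b-high cells (adjusted p = 5.57e-06, edgeR, n = 2 sums against 2). *Sfrp1* was 1 of 13 genes called higher in C4b-high cells (0.369% of 3522 genes tested), and ranked 3 by p among all genes. The call was kept with DESeq2 (2.71, adjusted p = 0.00276) and without the plate that held 34 of the 51 C4b-high cells (3.23, adjusted p = 0.0067, edgeR, 998 genes tested). It was lost under other settings: with the plates labelled as doublets left out, 1 C4b-high sum remained and the difference was 3.47 with an adjusted p of 0.154 (edgeR), and with sums of any size admitted it was 3.21 with an adjusted p of 0.349. With every gene tested, however rare, it was 2.63 with an adjusted p of 0.845.

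**Figure D1:**
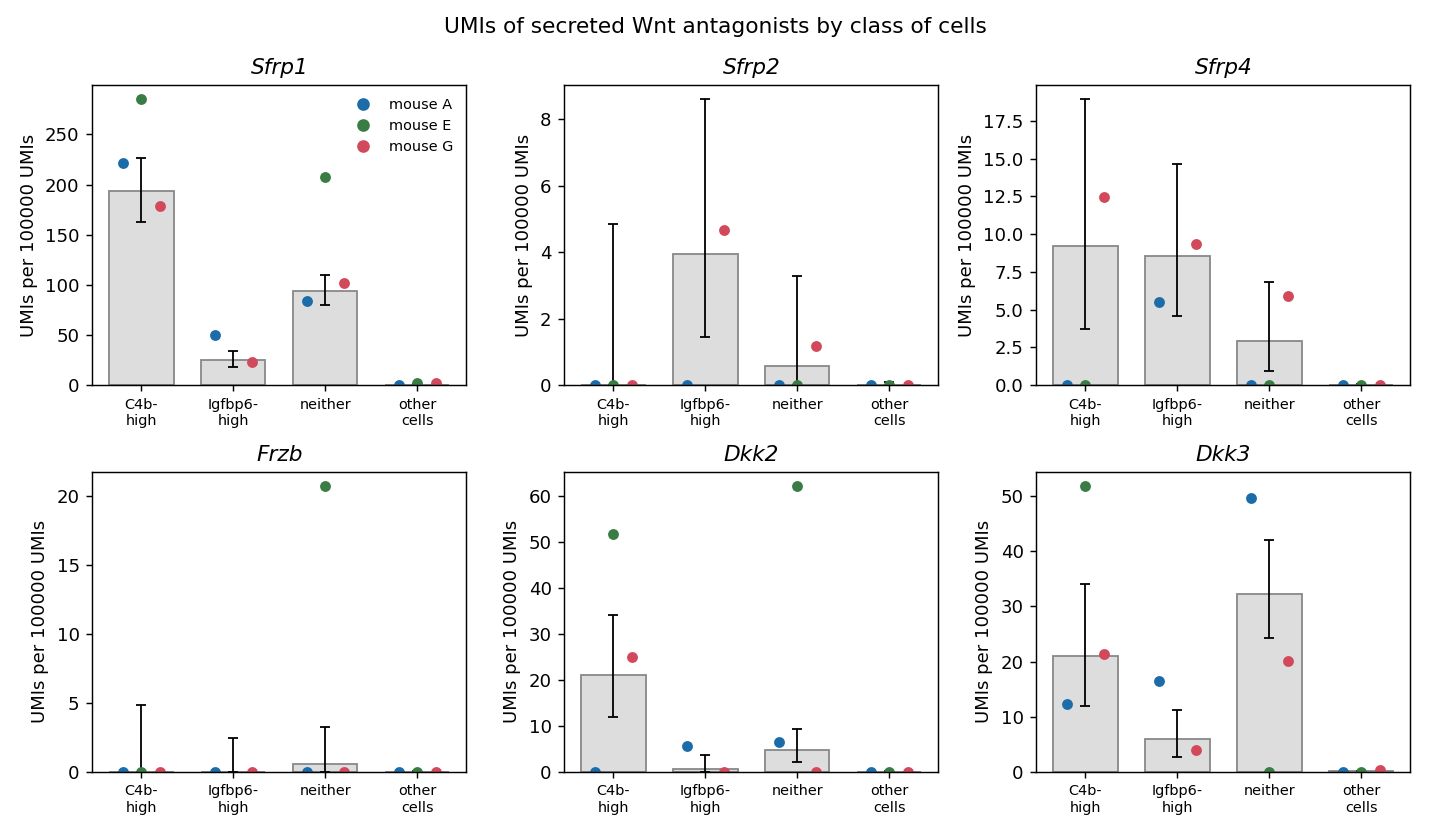
Levels of 6 antagonists in UMIs per 100000 UMIs (vertical axes, a scale for each gene) in C4b-high, Igfbp6-high, remaining mesenchymal and other cells. Grey bars are levels over all cells of a class with exact 95% Poisson intervals, and points are mice A, E and G where the class had at least 4 cells; *Sfrp1* stands at 193 in C4b-high and 25.05 in Igfbp6-high cells.

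The share of cells followed the same order as the level for *Sfrp1*. It was detected in 35 of 51 C4b-high cells (68.6%, exact 95% binomial interval 54.1 to 80.9), 18 of 100 Igfbp6-high cells (18%, 11.03 to 26.9) and 53 of 174 cells with neither gene ahead (30.5%, 23.7 to 37.9). Thinned to 400 UMIs a cell, which left out no cell, the shares were 44.8%, 8.14% and 20.8%. The classes had been sequenced to different depths, with medians of 1303, 1343 and 771.5 UMIs a cell, against 1444.5 in the other cells. Of the 106 mesenchymal cells with *Sfrp1*, 68 had 2 or more of its UMIs, and the highest had 13.

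**Figure D2:**
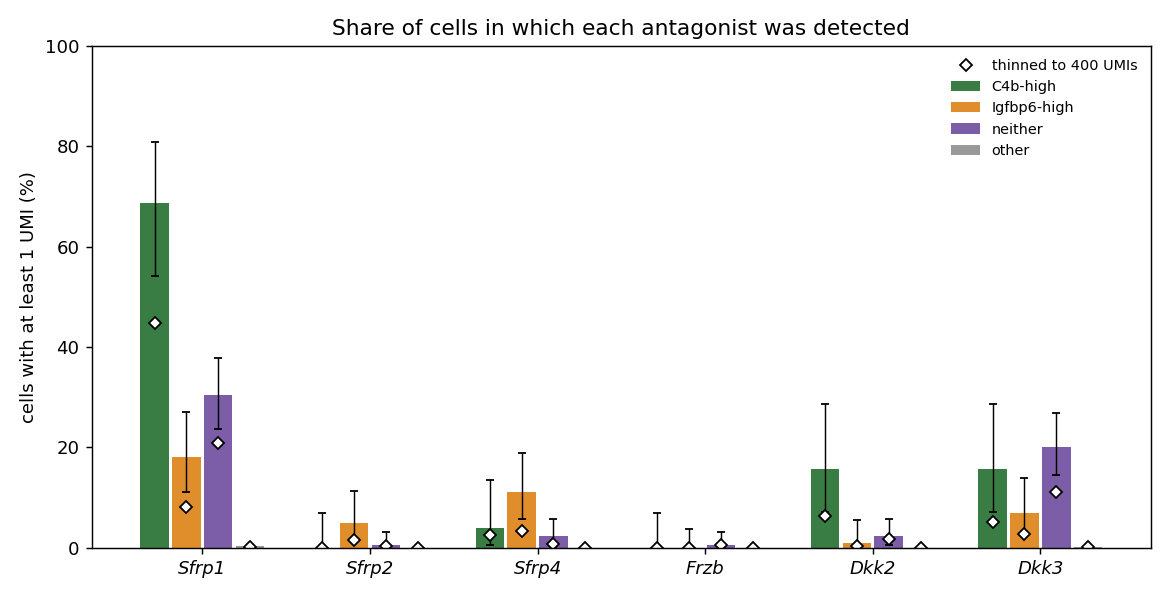
Share of cells with at least 1 UMI of each antagonist (percent, vertical axes) by class, with exact 95% binomial intervals as lines and shares after thinning to 400 UMIs as diamonds. *Sfrp1* was detected in 68.6% of C4b-high cells and 18% of Igfbp6-high cells, and *Dkk3* in 20.1% of cells with neither gene ahead.

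The other Frizzled-related genes were rare. *Sfrp4* had 7 UMIs in 2 C4b-high cells, 13 UMIs in 11 Igfbp6-high cells and 5 UMIs in 4 cells with neither gene ahead. All but 1 of these 25 UMIs came from mouse G. The sums of the 2 classes differed by 0.15 on the log2 scale (95% interval -2.29 to 2.59, adjusted p = 0.997, edgeR), an interval that holds a change of 4-fold in either direction. *Sfrp2* had 6 UMIs in 5 Igfbp6-high cells, 1 UMI in a cell with neither gene ahead and 0 in 51 C4b-high cells, which at 3 cells in place of 0 limits the share of C4b-high cells with a *Sfrp2* UMI to 5.88%, not the share expressing it, and all 7 UMIs came from mouse G. *Frzb*, which is also known as *Sfrp3*, had a single UMI, in mouse E. Neither *Sfrp2* nor *Frzb* passed the filter on low counts for the test between the classes.

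Of the Dickkopf genes, *Dkk2* UMIs lay mostly in C4b-high cells and *Dkk3* UMIs mostly in cells with neither gene ahead. *Dkk2* had 16 UMIs in 8 C4b-high cells, 1 UMI in an Igfbp6-high cell and 8 UMIs in 4 cells with neither gene ahead, or 21.0, 0.659 and 4.70 per 100000. The C4b-high UMIs came from mouse G (14 UMIs) and mouse E (2 UMIs), none from mouse A, and the Igfbp6-high UMI came from mouse A, so the mice did not show the same order. The sums of mice A and G differed by 3.95 on the log2 scale (95% interval 0.82 to 7.09), with p = 0.0135 before and 0.701 after adjustment (edgeR), and the pooled ratio of 14 UMIs to 1 had a counting interval of 4.32 to 1202.
*Dkk3* had 16 UMIs in 8 C4b-high cells, 9 UMIs in 7 Igfbp6-high cells and 55 UMIs in 35 cells with neither gene ahead, or 21.0, 5.93 and 32.3 per 100000. By mouse the C4b-high level was 12.3 per 100000 in mouse A and 21.4 in mouse G, and the Igfbp6-high level was 16.5 in mouse A and 3.89 in mouse G, so the 2 classes overlapped. The sums differed by 1.38 on the log2 scale (95% interval -0.92 to 3.68, adjusted p = 0.997, edgeR). Among cells with *Acta2*, the smooth muscle actin gene, 16 of 45 had *Dkk3*, and 34 of the 280 without it.
Of the 6 members with a row, 4 were tested between the classes and 1 was called, where 0.511% of all 3522 genes tested were called (0.369% higher in C4b-high and 0.142% higher in Igfbp6-high cells). *Dkk2* and *Dkk3* passed the minimum of 10 UMIs only with their C4b-high UMIs.

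In most mesenchymal cells 1 antagonist or none was detected. With a median of 1028 UMIs a cell, RNA that was present can be missed, so these are counts of detection. None was detected in 166 cells, 1 in 126 cells, 2 in 32 cells and 3 in 1 cell. *Dkk2* and *Sfrp1* were found together in 10 of the 13 cells with *Dkk2*, *Dkk3* and *Sfrp1* in 19 cells (38.0% of those with *Dkk3* and 17.9% of those with *Sfrp1*), and *Sfrp4* and *Sfrp1* in 3 of the 17 cells with *Sfrp4*. None of the 6 cells with *Sfrp2* had *Sfrp1*. Among the 48 cells with *Grem1*, a secreted BMP antagonist, 35 had *Sfrp1*, 8 had *Dkk2*, 8 had *Dkk3* and none had *Sfrp4* or *Sfrp2*. *Sfrp1* was also found in 71 of the 277 cells without *Grem1*. The 75 cells with *Ly6c1*, a surface protein gene, included 11 of the 17 cells with *Sfrp4* and 5 of the 6 with *Sfrp2*. Of these 75 cells, 16 had *Sfrp1*, 6 had *Dkk3* and 1 had *Dkk2*. Most of these cells came from 1 mouse, so the counts describe these libraries.

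In the captured tissue none of the 4 antagonists tested passed the test between zones, with or without the mouse as a block. Levels there are in ppm (parts in 1000000) of the deposited TPM, after genes that make up the bulk of epithelial RNA were removed, and in such bulk tissue fewer cells with a transcript and less RNA per cell cannot be told apart. The 29 sections listed 5481 to 17306 genes above 0, and since TPM keep no read counts the depth is unknown. The 6 genes that define the mesenchymal cells had a median sum per mouse of 362 ppm in the crypt, 115 in the villus bottom, 678 in the villus center and 67.3 in the villus tip. A list of 5 Paneth cell genes summed to 15417 to 98001 ppm in the crypt and 11.4 to 169177 ppm in the villus tip, highest in mouse 3. The epithelial list summed to 1132 to 18819 ppm in the villus tip. These marker sums were taken with the epithelial genes kept. The part of these markers in the zone values was not tested.

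*Sfrp1* was listed above 0 in 24 of the 29 sections. In the crypt it stood at 3.13, 13.4 and 31.2 ppm in mice 1 to 3, and in the villus bottom at 20.5, 28.0, 6.58, 0 and 0.375 ppm in mice 1 to 5. In the villus center the 5 mice were at 2.61, 1.16, 2.15, 0 and 18.99 ppm, and in the villus tip at 0, 3.09, 28.7, 2.18 and 3.49 ppm. The highest mouse in every zone reached 18.99 ppm or more and all zones overlapped. Sections of 1 mouse also differed, as the crypt of mouse 3 shows with 5.98 and 56.4 ppm in its sections. The zone means ran from crypt (15.9 ± 14.2 ppm, SD, n = 3) over bottom (11.1 ± 12.6, n = 5) and tip (7.50 ± 11.9, n = 5) to center (4.98 ± 7.90, n = 5), and no neighbours in this order differed beyond their spread. In all 3 mice with both zones the tip was lower than the crypt, and the difference over all mice was -1.48 on the log2(ppm + 1) scale (95% interval -4.06 to 1.09, adjusted p = 0.991, limma).

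*Sfrp4* had its highest zone mean in the villus tip, with mice 1 to 5 at 0, 6.11, 2.15, 7.67 and 9.75 ppm (5.14 ± 4.00, SD, n = 5). In the villus bottom they were at 0.626, 0.932, 0.662, 2.36 and 3.46 ppm, in the center at 0.0233, 3.46, 0, 3.07 and 5.31 ppm, and in the crypt mice 1 to 3 were at 0.703, 3.70 and 2.83 ppm. The tip was above the bottom in 4 of 5 mice, but the ranges overlapped, since mouse 1 was listed at 0 in the tip. The difference between tip and bottom was 0.95 on the log2(ppm + 1) scale (95% interval -0.73 to 2.62, adjusted p = 0.990, limma, and p = 0.206 in a two-sided exact permutation test without pairing by mouse). The bottom was below the crypt in 3 of 3 mice, by 0.39 (bottom minus crypt -0.39, 95% interval -2.32 to 1.55, adjusted p = 1, limma). *Sfrp4* passed the filter on low values, a zone mean above 5 ppm, only through the tip. Tip minus crypt was 0.56 over all mice and -0.15 with mice 4 and 5 left out, which gave no crypt.

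*Sfrp2*, *Frzb* and *Wif1* stayed under the filter of a zone mean above 5 ppm and were not tested. *Sfrp2* was listed above 0 in 7 of 29 sections: it was at 0 in the crypt of all 3 mice and reached 12.4 ppm in the bottom of mouse 5. *Frzb* was above 0 in 9 sections, and its highest section, in the bottom of mouse 2, was at 22.7 ppm. *Wif1* was also above 0 in 9 sections, with mice 1 to 3 listed at 0 in the villus tip and mice 4 and 5 at 7.24 and 12.8 ppm there. Mice 4 and 5 stood apart for *Sfrp2* and *Wif1*, a division made after the values were seen. Of the villus sections of mice 4 and 5, 6 of 6 listed *Sfrp2* above 0 and 5 of 6 listed *Wif1*, against 1 of 17 and 2 of 17 for mice 1 to 3. The counts were 6 of 6 against 10 of 17 for *Sfrp4* and 4 of 6 against 3 of 17 for *Frzb*. They were 4 of 6 against 14 of 17 for *Sfrp1* and 5 of 6 against 13 of 17 for *Dkk3*, and *Dkk2* was above 0 in all. Mice 4 and 5 gave no crypt, so the 0 of *Sfrp2* there comes from mice 1 to 3. The villus libraries of mice 4 and 5 also listed more genes above 0, with a median of 15941 against 12756, and the part of this in the result was not tested.

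*Dkk2* was the only member listed above 0 in all 29 sections. In the crypt it was at 9.87, 38.7 and 5.11 ppm in mice 1 to 3, in the villus bottom at 8.04, 14.4, 4.95, 9.46 and 10.4 ppm in mice 1 to 5, in the center at 7.01, 16.2, 15.8, 50.5 and 8.85 ppm, and in the tip at 4.40, 7.81, 17.3, 13.02 and 21.3 ppm. The zones overlapped throughout, with 1 high mouse in the crypt and 1 in the center. The zone means ran from center (19.7 ± 17.7 ppm, SD, n = 5) over crypt (17.9 ± 18.2, n = 3) and tip (12.8 ± 6.84, n = 5) to bottom (9.46 ± 3.47, n = 5), again with no neighbours apart beyond their spread. Tip and crypt differed by -0.18 on the log2(ppm + 1) scale (95% interval -1.96 to 1.60, adjusted p = 0.999, limma), which became 0.70 without mouse 2. The bottom was below the crypt in 3 of 3 mice, with a difference of -0.47 (95% interval -2.25 to 1.31, adjusted p = 1, limma).

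*Dkk3* was above 0 in 24 sections and had the highest value by mouse and zone of the 7 members. In the villus bottom mice 1 to 5 were at 6.11, 38.5, 10.2, 4.86 and 11.04 ppm and in the tip at 0.0342, 21.1, 2.87, 0 and 3.27 ppm. The tip was lower than the bottom in each of the 5 mice, by 1.84 on the log2(ppm + 1) scale as the mean difference (tip minus bottom -1.84, 95% interval -4.03 to 0.35). This did not pass the test (adjusted p = 0.990, limma, and 0.691 with the mouse as a block). A two-sided exact permutation test gave p = 0.111, with 0.00794 as its smallest possible p. It did not pair the zones of a mouse, so it does not weigh the shared direction. In the crypt mice 1 to 3 were at 0.472, 10.7 and 11.6 ppm, and in the center the 5 mice were at 7.46, 0, 8.44, 66.3 and 2.03 ppm. No neighbours differed beyond their spread in the order of zone means either, from center (16.8 ± 27.9 ppm, SD, n = 5) over bottom (14.1 ± 13.8, n = 5) and crypt (7.61 ± 6.20, n = 3) to tip (5.45 ± 8.87, n = 5). The center of mouse 4 held the highest *Dkk2* and *Dkk3* values by mouse and zone. Among the 18 values of mouse and zone it also had the highest sums of pericyte (726 ppm) and immune markers (1405 ppm). Its sums of smooth muscle markers (1118 ppm) and of the mesenchymal genes (683 ppm) were the second highest. The highest sums of these 2 lists, 4153 and 1180 ppm, were in the center of mouse 1, with *Dkk2* at 7.01 and *Dkk3* at 7.46 ppm. The part of these markers in the result was not tested.

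**Figure D3:**
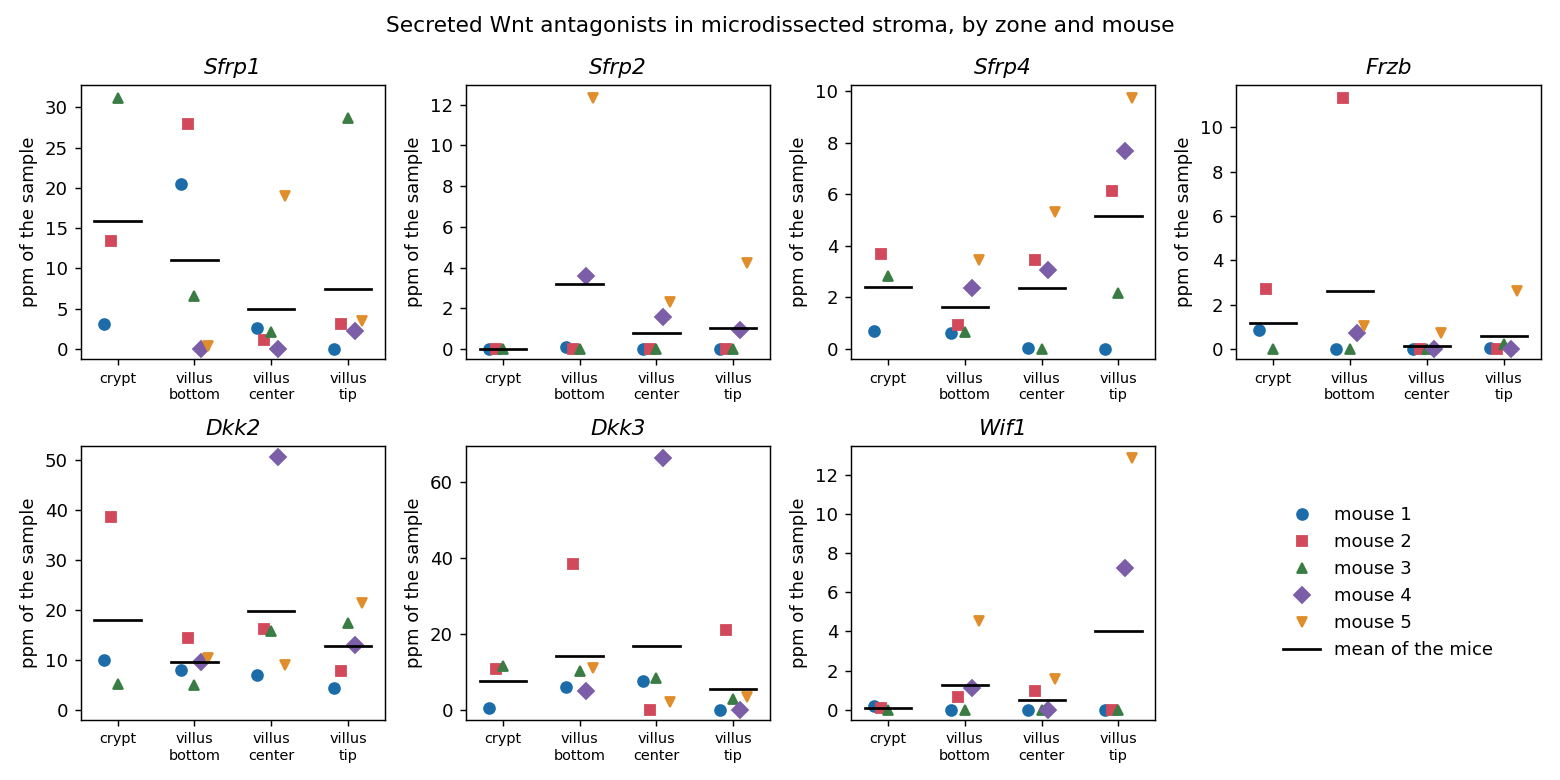
Levels of the 7 antagonists in laser-captured tissue in ppm (vertical axes, a scale for each gene) by zone, with a symbol for each of the 5 mice and a black line at the mean of mice. The spread between mice within a zone is as large as the differences between zones, as for *Sfrp1* in the crypt, from 3.13 to 31.2 ppm.

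Across these 3 comparisons of tip with crypt, bottom with crypt and tip with bottom, limma called 0 of 13535 genes (0% in each), and 441, 205 and 620 genes had an unadjusted p under 0.05 (3.26%, 1.51% and 4.58%), none of them 1 of the 4 antagonists tested. With 3 crypt mice the unpaired exact permutation test could not go below p = 0.0179, and it gave 0.25 to 0.821 for these members there. The ranges of all 7 members overlapped between the zones in every comparison, for *Sfrp2* against the crypt only through values of 0 in both zones. The share of all genes with such an overlap was not counted, so this says nothing particular to the members.

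**Figure D4:**
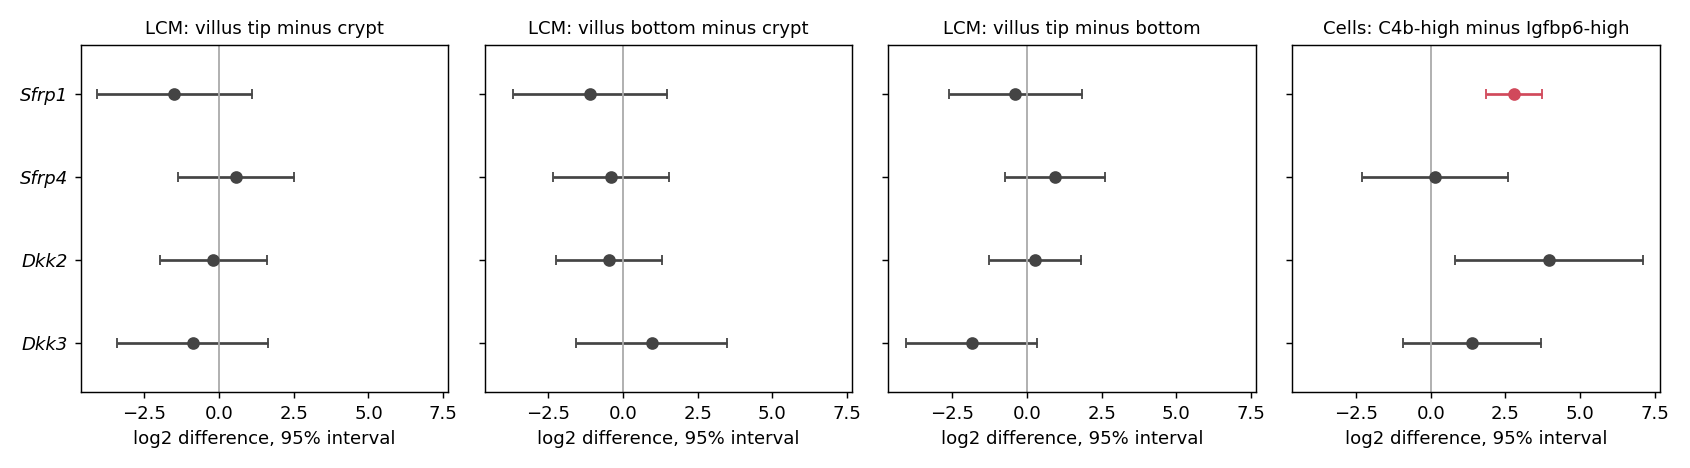
Differences of the 4 antagonists tested, on a log2 scale, with 95% intervals as lines: 3 comparisons of captured zones (limma, log2(ppm + 1)) and C4b-high minus Igfbp6-high cells (edgeR). Red marks an adjusted p under 0.05, which only *Sfrp1* in the cells reached, at 2.78.

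Over the 18 values of mouse and zone, Pearson's r between pairs of the members tested ran from -0.08 to 0.38. Among all genes tested, those most like *Sfrp1* were *Plekhg5* (r = 0.80), *Ripk1* (0.77) and *Zscan26* (0.76), and those most like *Sfrp4* were *Saa4* (0.93) and *Aoah* (0.92). For *Dkk2* they were *Ube2u* (0.79), *Mak* (0.78) and *Ankrd17* (0.78), and for *Dkk3* they were *Nkx2-3* (0.82), *Cxcl12* (0.81) and *Hspg2* (0.79). The 18 values come from 5 mice, so these r are descriptions.

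Other genes of the Wnt pathway were read from a list of 64. It held ligands, R-spondins, receptors, co-receptors, targets and other secreted antagonists, with genes of ligand secretion, receptor turnover and signal transduction. In the captured tissue 57 of them were listed, 34 were tested and 0 were called in any of the 3 comparisons. Of the co-receptor genes whose products Dkk2 binds, *Lrp6* had zone means of 38.6, 37.1, 46.2 and 73.8 ppm and *Lrp5* of 7.83, 7.59, 5.98 and 5.55 ppm from crypt to tip. Tip and crypt differed by 0.65 for *Lrp6* (95% interval -1.04 to 2.34) and by -0.41 for *Lrp5* (-2.003 to 1.18) on the log2(ppm + 1) scale, each with an adjusted p of 0.991 (limma). In single cells 28 were tested between mesenchymal and other cells: 9 were called higher in mesenchymal cells, 3 higher in other cells and 16 were not called, where 29.0% of all genes were called.
Those higher in mesenchymal cells included the ligand gene *Wnt5a*, by 5.73 on the log2 scale, *Wls*, which carries Wnt ligands to the surface, by 3.41, and the receptor gene *Fzd4*, by 2.60 (edgeR). The receptor gene *Fzd1* had 58 UMIs in mesenchymal and 1 in other cells. *Fzd5* had 0 UMIs in mesenchymal and 179 in other cells, at least 5.75-fold higher in the latter. *Wnt5a*, with 56 against 5 UMIs, and *Fzd1* passed the minimum of 10 UMIs only with their mesenchymal UMIs, so their direction was set by the filter. *Fzd5* passed it only with its UMIs in other cells. *Wls* and *Fzd4* had 18 and 30 UMIs in the other cells alone. Of the other secreted antagonists on the list, only *Sfrp5* was tested between mesenchymal and other cells. It had 0 UMIs in mesenchymal and 13 in other cells and was not called (adjusted p = 0.209, edgeR). Between C4b-high and Igfbp6-high cells 9 of the list were tested and 0 were called by edgeR. Among them were *Fzd1*, with 31 against 13 UMIs (adjusted p = 0.589, edgeR), and *Wnt5a*, with 2 against 21 UMIs.

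In isolated epithelium the antagonists were at or near 0. Among 19417108 UMIs of the 8 libraries, *Sfrp1* had 12 UMIs, *Dkk3* 9, *Wif1* 2 and *Sfrp4* 1, and the other members had 0. The 12 UMIs of *Sfrp1* were 5 in toxin-treated and 7 in mock-treated mice, and 6 of the 9 of *Dkk3* came from 1 mock library. No member passed the filter on low counts, so the treatments were not compared.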

How the data were processed

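The authors deposited TPM for the captured sections, made with kallisto on coding transcripts of GRCm38 with a strand-specific setting, and UMI counts for cells and epithelium, made with zUMIs (GRCm38 per the labels). Names listed more than once (104) in the table of captured tissue were kept as separate rows, and 352 wells of a plate matching no sample were not used. From the TPM, enterocyte genes were removed: of the 487 genes that make up 50% of mock epithelial UMIs, the 378 that are listed and neither ribosomal nor mitochondrial (4.97% to 44.7% of TPM); the rest was scaled to ppm of genes under 1% each, the sections of 1 mouse and zone were averaged, and log2(ppm + 1) of genes with a zone mean above 5 ppm was tested with limma 3.58.1 (R 4.3.3). UMI counts were summed per mouse and class (at least 5 cells, genes with at least 10 UMIs) and tested with edgeR 4.0.16 (TMM, quasi-likelihood), with DESeq2 1.42.0 as an alternative. The paper subtracted a background from each plate, taken from its empty wells. No background was subtracted here, so detections by single UMIs may include it. *C4b* and *C4a* are near-identical copies, so the split may mix their reads. Values of the same mouse pair by origin: their deviations correlated with r of -0.07 to 0.44 between zones, 0.07 between C4b-high and Igfbp6-high sums and -0.02 to 0.11 between mesenchymal and other sums, and blocked fits were alternatives. On simulated data, a fold of 16 was recovered in 184 of 200 genes between classes, a fold of 4 in 9, and a log2 shift of 6 between tip and crypt in 160 of 200, a shift of 3 in 3. The members and gene lists were chosen with earlier results of these data known. All members are named, and likeness genes are the 3 of highest r, of which 1 is not reported here.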

Additional observations from a re-analysis of the deposited data

Results flagged for a closer look

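Dixon's test was run on the ppm of 21 groups of 5 mice (7 genes in 3 villus zones). Its chance rate of about 1 in 20 groups holds for independent, normally distributed values. The ppm are skewed, with many values at their floor, and the groups share the same mice, so that rate does not apply here. The highest mouse stood far from the others in 12 groups, a count given as a description only. In the villus bottom these were *Sfrp2* in mouse 5 (12.4 ppm), *Frzb* in mouse 2 (11.4 ppm), *Dkk3* in mouse 2 (38.5 ppm) and *Wif1* in mouse 5 (4.51 ppm). In the villus center they were *Sfrp1* (18.99 ppm) and *Frzb* (0.722 ppm) in mouse 5, and *Dkk2* (50.5 ppm) and *Dkk3* (66.3 ppm) in mouse 4. In the villus tip they were *Sfrp1* in mouse 3 (28.7 ppm), *Sfrp2* (4.22 ppm) and *Frzb* (2.62 ppm) in mouse 5, and *Dkk3* in mouse 2 (21.1 ppm).

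Wells outside the limits on UMIs and genes, which no comparison used, held 34 UMIs of *Sfrp1* and 8 UMIs of *Dkk3*.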

How the results depend on the processing

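The zone differences, none of which passed the test, changed sign under some settings. Tip minus crypt of *Sfrp4* was -0.046 with the mouse as replicate block and -0.15 with mice 4 and 5 left out, and bottom minus crypt of *Sfrp1* was 0.43 with them left out, an alternative chosen after seeing the data. Without 1 mouse at a time, tip minus bottom ran from -0.97 to 0.63 for *Sfrp1* and from -0.042 to 0.56 for *Dkk2*, tip minus crypt of *Dkk2* from -0.91 to 0.70, and bottom minus crypt of *Dkk2* from -0.87 to 0.14. Without the filter on low values, limma called 2 genes between tip and crypt and 2 between bottom and crypt. Between C4b-high and Igfbp6-high cells, 18 genes were called, against 7 with DESeq2, 0 with no filter, 1 with doublet plates left out and, as alternatives chosen after seeing the data, 0 with sums of at least 1 cell, 4 without the plate with most C4b-high cells and 1 with PdgfraSinglets plates only, where the *Sfrp1* difference of 3.47 had an adjusted p of 0.154 (edgeR). The replicate block gave 17 genes and *Sfrp1* at 2.79 there, and 2778 genes between mesenchymal and other cells, and changed no member's call. *Sfrp1* ranged from 2.63 to 3.47, and *Sfrp4* was -0.52 with the split at 2 UMIs or more. Leaving out mouse A or G left 1 sum a class and no test. Between mesenchymal and other cells, 3744 genes were called, and 2134 to 4000 without 1 mouse, with 2134 without mouse G and 2451 without mouse A. *Sfrp1*, *Dkk2* and *Dkk3* stayed called there under every alternative run, and *Sfrp4* under the 12 that tested it. It had no result with DESeq2, without mouse G, which held 24 of its 25 UMIs, or without the plate with most mesenchymal cells. The causes of these changes were not tested. Alternative settings for the epithelium were not run, since no member passed its filter.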
